A study of Mus musculus with 12 samples.

Results

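The chaperonin genes of sorted mouse spermatogonia are described here: *Tcp1*, *Cct2*, *Cct3*, *Cct4*, *Cct5*, *Cct6a*, *Cct7* and *Cct8*, which encode the 8 subunits of the cytosolic chaperonin TRiC, and *Hspd1* and *Hspe1*, which encode the mitochondrial chaperonin HSP60 and its lid HSP10. They were chosen by gene symbol, a rule that uses no measured value but was set with earlier results of these data known, and are 10 of the 21859 genes in the expression table. RNA was measured in GFRa1+/KIT- spermatogonia from 5 control and 7 surgically cryptorchid testes by Smart-seq2, a PCR-based protocol that copies whole transcripts and does not tag single molecules. The mice were adult GFRa1-EGFP animals of 8 to 10 weeks, whose EGFP reports expression of *Gfra1*, a receptor gene for GDNF. In the surgery 1 testis was fixed to the abdominal wall, the other stayed in the scrotum as the control, and collection was 10 days later. The labels give the control samples as WT and the others as Cryptorchid, and none of the groups received a drug. As cryptorchidism was induced in adults, these groups are not a model of a testis that never descended. Control tissue was digested for 9 min at 32°C and cryptorchid tissue at 37°C, so the effects of this step and of the surgery cannot be told apart. About 1000 sorted cells gave the RNA, and the RNA of about 200 of them went into each library. It is not stated which libraries came from the same mouse, so *P*-values measure the spread between these samples.

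A chaperonin is a barrel made of stacked rings, in whose cavity an unfolded protein is enclosed while it folds. TRiC takes newly made actin and tubulin, along with many other cytosolic proteins, and receives part of them from the cochaperone prefoldin. HSP60 and HSP10 do the same work for proteins imported into the mitochondrial matrix, and the genes of both are classical targets of the heat shock factor HSF1. Male germ cells are kept below body temperature in the scrotum, and moving the testis into the abdomen exposes them to body heat. The question addressed by the comparison is whether these folding machines were expressed at other levels in cryptorchid spermatogonia.

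*Hspd1* (chr1:55077833-55088243, minus strand) and *Hspe1* (chr1:55088148-55091317, plus strand) lie head to head on GRCm38, and the RefSeq spans of the genes share 96 bases. The heat shock element, to which HSF1 binds, is a run of alternating TTC and GAA blocks spaced by any 2 bases. RefSeq promoter windows (GRCm38.p6, 250 bases before to 50 after each start) were used for 9 of the 10 genes (all but *Cct4*), with 12 windows in all since 3 genes have more than 1 annotated start. Both strands were searched. The 4-block run TTCNNGAANNTTCNNGAA or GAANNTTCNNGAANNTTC was found in 8 of 27025 genes with a window (0.0296%), and *Hspd1* and *Hspe1* both held it because their windows share the same stretch of DNA. The sequences are shown because these were the only 2 of the 9 genes with a run of 3 or more blocks. The block run is in capitals. It starts 89 bases upstream of the *Hspe1* start and 144 bases upstream of the inner of the annotated *Hspd1* starts (position 55087932), and the other gene shown, *Chordc1*, is a heat shock gene in which such a run begins 4 bases upstream of the start and covers it.
Hspe1 (chr1:55088053-55088082, plus strand): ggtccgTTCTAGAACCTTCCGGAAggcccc
Hspd1 (chr1:55088053-55088082, minus strand): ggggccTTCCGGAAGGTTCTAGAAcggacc
Chordc1 (chr9:18292257-18292286, plus strand): caaccgGAACGTTCGGGAAAATTCctgaag

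None of the 7 TRiC genes with a window held a run of 3 or more blocks, a run found in 0.662% of genes. The shorter run of 2 blocks (TTCNNGAA or GAANNTTC), which every longer run contains, was in 17.0% of genes and in the windows of *Cct2*, *Cct5* and *Cct6a*. These matches are shown for contrast with the longer run, with the blocks in capitals. They start 42 bases upstream of an inner annotated start (position 117063375) in *Cct2*, 34 bases upstream in *Cct5* and 24 bases downstream in *Cct6a*. The CCAAT box (CCAAT or ATTGG) was in 41.1% of genes and in 5 of the 9, which were *Tcp1*, *Cct3*, *Cct6a*, *Cct7* and *Hspd1*. A match describes the letters of a window and was not tested as a binding site.
Cct2 (chr10:117063399-117063428, minus strand): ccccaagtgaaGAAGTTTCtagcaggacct
Cct5 (chr15:31601862-31601891, minus strand): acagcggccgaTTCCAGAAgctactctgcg
Cct6a (chr5:129787369-129787398, plus strand): gcgtaagacttTTCGAGAAgaccccgcaga

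Reads on genes numbered 4511730 to 24345368 in a control library and 3306771 to 20027902 in a cryptorchid library. Replicates 1 to 3 and replicates 4 and above were treated as separate technical sets, each with libraries of both groups. The labels do not name such sets. Reads on genes numbered 6800360 to 24345368 in replicates 1 to 3 and 3306771 to 5481947 in replicates 4 and above. They made up 74.5% to 94.0% and 94.8% to 99.9% of the library total. All 12 marker genes of undifferentiated spermatogonia had reads in every library, with a summed level of 1261 to 1870 RPM (reads scaled to the total of the library) in control and 1474 to 2216 RPM in cryptorchid libraries, and 1 of the 12 was lower in cryptorchid libraries at an unadjusted *P* of 0.05 in limma. Markers of differentiating spermatogonia, which a KIT- gate should reduce, summed to 231 to 775 RPM and 295 to 821 RPM, with 1 of 6 higher. Spermatid markers had means lower in cryptorchid libraries for 7 of 7 genes, with an unadjusted *P* under 0.05 in limma for 3 of them, and a summed level of 492 to 2702 RPM in control against 13.7 to 1790 RPM in cryptorchid libraries. Their part in the results below was not tested. Summed markers of spermatocytes were 566 to 1917 RPM in control and 533 to 2120 RPM in cryptorchid libraries. Of the endothelial markers, 2 of 4 tested were higher in cryptorchid libraries at an unadjusted *P* of 0.05 in limma, with sums of 10.2 to 28.4 RPM and 18.5 to 44.5 RPM. Summed markers of Sertoli cells were 43.0 to 232 RPM in control and 39.6 to 252 RPM in cryptorchid libraries, and those of macrophages 2.69 to 23.6 RPM and 7.95 to 27.7 RPM. Those of Leydig cells were 9.04 to 16.1 RPM and 6.42 to 48.2 RPM, those of peritubular myoid cells were 1.95 to 16.5 RPM and 1.04 to 14.7 RPM with 1 of 4 tested higher, and those of lymphocytes 0.302 to 3.59 RPM and 1.47 to 7.82 RPM. Among lymphocyte markers, *Nkg7* had no reads in any library. In such bulk samples, fewer expressing cells and less RNA per cell cannot be told apart.

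All 10 chaperonin genes were measured well above the limit for testing, with at least 528 reads in every library. In the 5 control libraries the 8 TRiC genes together took 2397 to 7628 RPM, and in the 7 cryptorchid libraries 2857 to 7323 RPM. The mitochondrial pair together took 116 to 466 RPM and 166 to 513 RPM. The TRiC sum of every cryptorchid library lay within the span of the control libraries, whereas the sum of the mitochondrial pair lay above every control in 4 of 7 cryptorchid libraries.

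Levels per transcript length (log2 RPKM, RPM per kilobase of the annotated GENCODE transcript) allowed the genes to be ordered. In control libraries the mean level fell from *Cct5* (8.58 ± 0.67, SD, n = 5) through *Cct8* (8.50), *Tcp1* (8.42), *Cct3* (8.32) and *Cct2* (8.28) to *Cct7* (7.96). *Hspe1* followed at 7.80, then *Cct4* (7.45), *Cct6a* (7.17) and, lowest, *Hspd1* (5.84 ± 0.86). Among the first 5 genes, neighbours changed places from library to library, as *Cct3* exceeded *Cct2* in 7 of 12 libraries and *Tcp1* exceeded *Cct3* in 6. *Cct2* exceeded *Cct7* in 12 of 12 libraries, *Cct4* exceeded *Cct6a* in 10 and *Cct6a* exceeded *Hspd1* in 12. The TRiC genes thus spanned 2.65-fold in level per length in control and 2.90-fold in cryptorchid libraries, although the complex holds its subunits in equal number. These spans depend on the length of 1 transcript per gene. For *Cct6a*, the low end of both, that transcript was not linked to RefSeq. In cryptorchid libraries *Cct8* stood first (8.84 ± 0.47, n = 7), followed by *Cct2* (8.49) and *Cct5* (8.42).

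**Figure D1:**
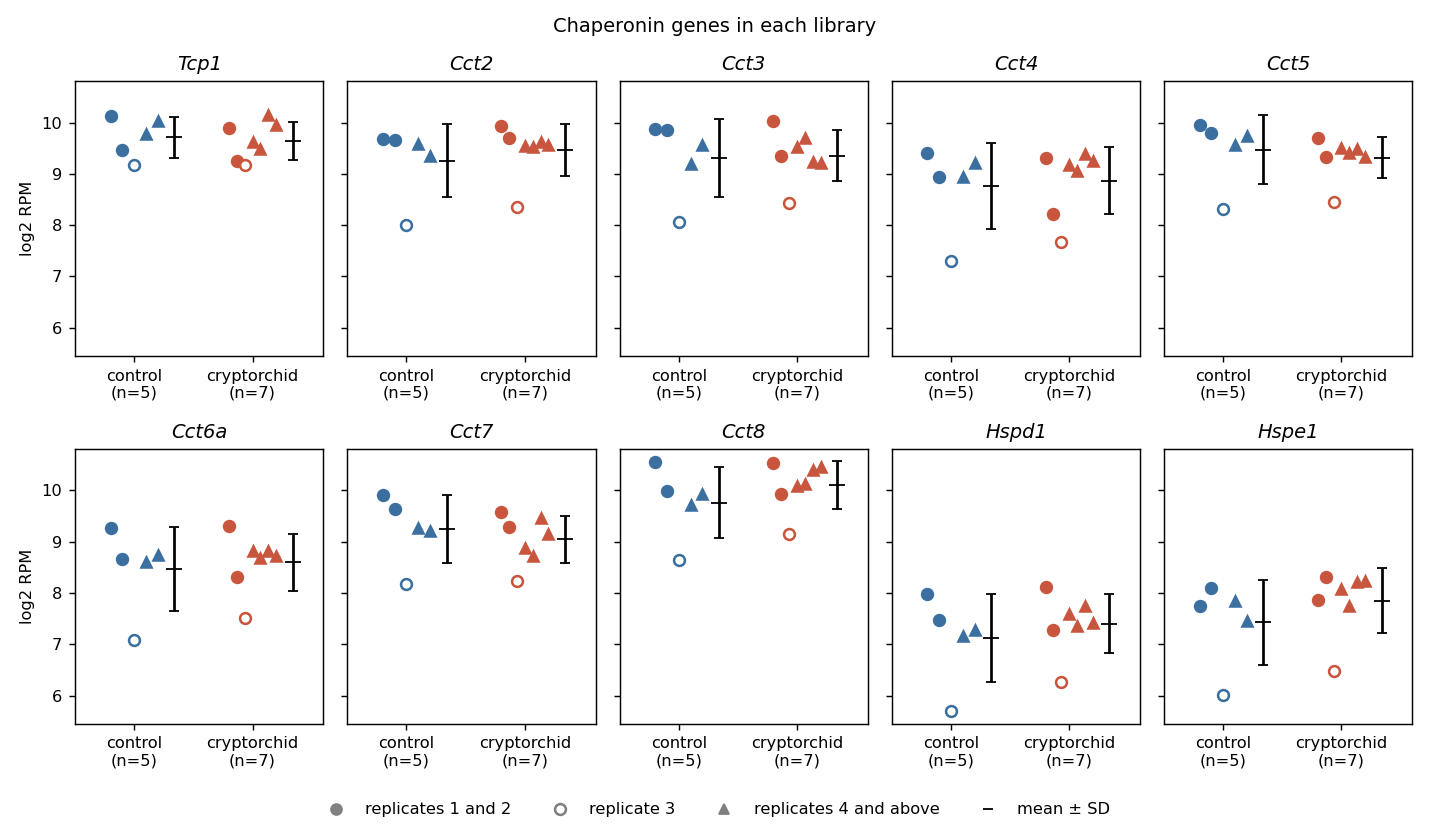
Each point is the log2 RPM of a gene in 1 library, for 5 control (blue) and 7 cryptorchid (red) libraries; open circles mark replicate 3 of each group, triangles replicates 4 and above, and black bars the mean and SD. In all 10 genes the points of the groups overlap and the open circle is the lowest of its group.

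Replicate 3 held the lowest value of both groups in every chaperonin gene, which bears on each comparison. It did not stand far apart in all of them. *Tcp1* was at 9.16 log2 RPM in cryptorchid replicate 3 and at 9.24 in cryptorchid replicate 2. Control replicate 3 was the lowest control library and cryptorchid replicate 3 the lowest cryptorchid library for 10 of 10 genes, and these libraries were the lowest 2 of all 12 for 10 of 10. The same held for 18.3% of all genes tested and for 39.3% of the 1751 genes whose mean RPM exceeded 7 on the log2 scale. The TRiC genes were lower by a median of -1.51 on the log2 scale in control replicate 3 than in the other controls, and by -1.08 in cryptorchid replicate 3, against -0.44 and -0.39 for all genes tested. For the mitochondrial pair the medians were -1.78 and -1.46. *Tcp1* deviated least (-0.68 and -0.56), and *Cct4* (-1.82 and -1.39) and *Hspe1* (-1.78 and -1.60) among the most. Prefoldin subunits, which hand substrates to TRiC, had medians of -1.30 and -1.28, and cytosolic heat shock genes -1.22 and -1.43. In control replicate 3, reads on genes made up 74.5% of the library total, the lowest share of the 12 libraries. Its part in the dip was not tested.

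**Figure D2:**
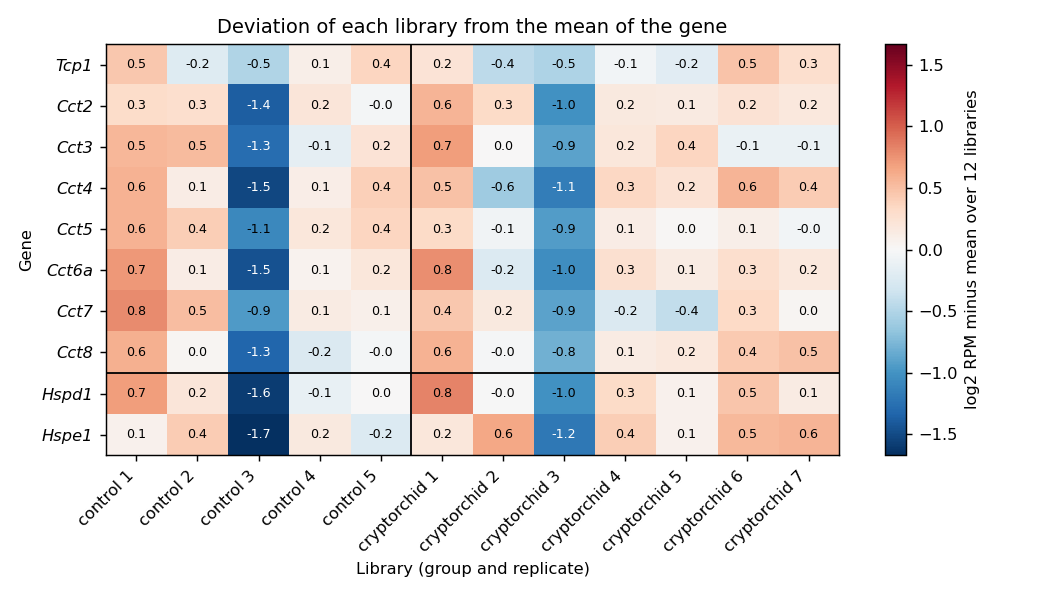
Heat map of log2 RPM minus the mean of each gene over 12 libraries, with control libraries left and cryptorchid libraries right of the vertical line, and TRiC genes above and the mitochondrial genes below the horizontal line. The columns of replicate 3 are blue (lower) throughout in both groups, and replicate 1 is red (higher) throughout in both.

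No chaperonin gene passed an unadjusted *P* of 0.05 between the groups in limma (0 of 10), beside 9.48% of all genes tested (5.67% higher and 3.82% lower in cryptorchid libraries). Accordingly 0 of 10 passed at 2-fold and an unadjusted *P* of 0.05, beside 5.92% of all genes. The adjusted *P*-values ran from 0.756 to 0.980, and 0 of 10 passed an adjusted *P* of 0.05, beside 0.0118% of all genes. At an unadjusted *P* of 0.05, the exact rank sum test (9.63% of all genes) and limma's voom on recovered reads (11.6%) also called 0 of 10. With the replicate number as a block, although the numbers could not be shown to pair the libraries, 1 of 10 passed (*Cct7*, limma adjusted *P*=0.159), beside 22.2% of all genes. Of the 8 TRiC genes, 5 had a higher and 3 a lower mean in cryptorchid libraries, and their median log2 difference was 0.07, beside 0.10 for all genes tested. Both mitochondrial genes had a higher mean. The ranges of the groups overlapped for 10 of 10 genes, and groups without overlap were found for 0.839% of all genes.

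Among the subunits that bind ATP strongly (*Cct2*, *Cct4*, *Cct5*, *Cct7*), *Cct2* (chr10:117050997-117063852, minus strand), the beta subunit, stood at 822, 807, 256, 764 and 648 RPM in control replicates 1 to 5. In cryptorchid libraries it ran from 329 RPM through a median of 751 to 979. Apart from replicate 3, the control libraries lay between 648 and 822 RPM, a span that also holds the cryptorchid median. The log2 difference, cryptorchid minus control, was 0.21 (SE 0.36, limma adjusted *P*=0.890). *Cct4* (chr11:22990593-23003336, plus strand), the delta subunit, stood at 679, 492, 158, 490 and 596 RPM in control libraries. Its cryptorchid range was 204 to 668 RPM with a median of 573. The range of the cryptorchid libraries thus lay inside that of the control libraries, and the log2 difference was 0.10 (SE 0.39).

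*Cct5* (chr15:31590800-31601846, minus strand), the epsilon subunit, was measured at 992, 888, 317, 758 and 853 RPM in control libraries. In cryptorchid libraries it ran from 349 through a median of 675 to 829 RPM. Leaving replicate 3 aside, control libraries began at 758 RPM and only the highest cryptorchid library exceeded that value. The log2 difference was -0.16 (SE 0.34, limma adjusted *P*=0.909), and without replicate 3 of both groups it was -0.31 (limma adjusted *P*=0.463). *Cct7* (chr6:85451505-85468477, plus strand), the eta subunit, was measured at 966, 799, 290, 614 and 594 RPM in control libraries. Its cryptorchid range was 302 to 761 RPM with a median of 570. Both the highest and the lowest library were control ones, and the log2 difference was -0.20 (SE 0.34, limma adjusted *P*=0.889).

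The other 4 subunits bind ATP weakly. *Tcp1* (chr17:12916329-12925067, plus strand), the alpha subunit after which the complex is named, stood at 1116, 705, 574, 876 and 1051 RPM in control libraries. It ran from 573 through a median of 788 to 1139 RPM in cryptorchid libraries. These spans were nearly identical, and *Tcp1* had the smallest spread of the 10 genes (log2 SD 0.40 in control and 0.37 in cryptorchid libraries). Its log2 difference was -0.07 (SE 0.31). *Cct3* (chr3:88297135-88321766, plus strand), the gamma subunit, stood at 944, 929, 267, 582 and 753 RPM in control libraries. The cryptorchid span was 346 to 1045 RPM with a median of 649, and the log2 difference of 0.04 (SE 0.36) was the smallest of all members. High and low libraries occurred in both groups.

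*Cct6a* (chr5:129787356-129846443, plus strand), the zeta subunit, stood at 613, 408, 136, 387 and 425 RPM in control libraries. In cryptorchid libraries it ran from 182 through a median of 420 to 636 RPM, with a log2 difference of 0.13 (SE 0.37). The cryptorchid median lay between the highest and the lowest control library. *Cct8* (chr16:87483325-87495869, minus strand), the theta subunit, stood at 1497, 1014, 399, 841 and 975 RPM in control libraries. Its cryptorchid libraries ran from 571 through a median of 1120 to 1484 RPM. The highest value of the gene was that of a control library, and the log2 difference of 0.33 (SE 0.37, limma adjusted *P*=0.812) was the largest among the TRiC genes.

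The mitochondrial chaperonin gene *Hspd1*, which encodes the HSP60 barrel, stood at 252, 179, 51.7, 143 and 156 RPM in control libraries. It ran from 77.1 through a median of 172 to 277 RPM in cryptorchid libraries. Only cryptorchid replicate 1 exceeded the highest control library. The log2 difference was 0.28 (SE 0.36, limma adjusted *P*=0.847). *Hspe1*, which encodes the HSP10 lid, was measured at 214, 275, 64.2, 229 and 175 RPM in control libraries. In cryptorchid libraries it ran from 89.4 through a median of 271 to 319 RPM. Here 3 of 7 cryptorchid libraries lay above the highest control library, and none lay below the lowest. The log2 difference of 0.42 (SE 0.37, limma adjusted *P*=0.756) was the largest of the 10 genes, and its 95% interval ran from -0.36 to 1.21.

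**Figure D3:**
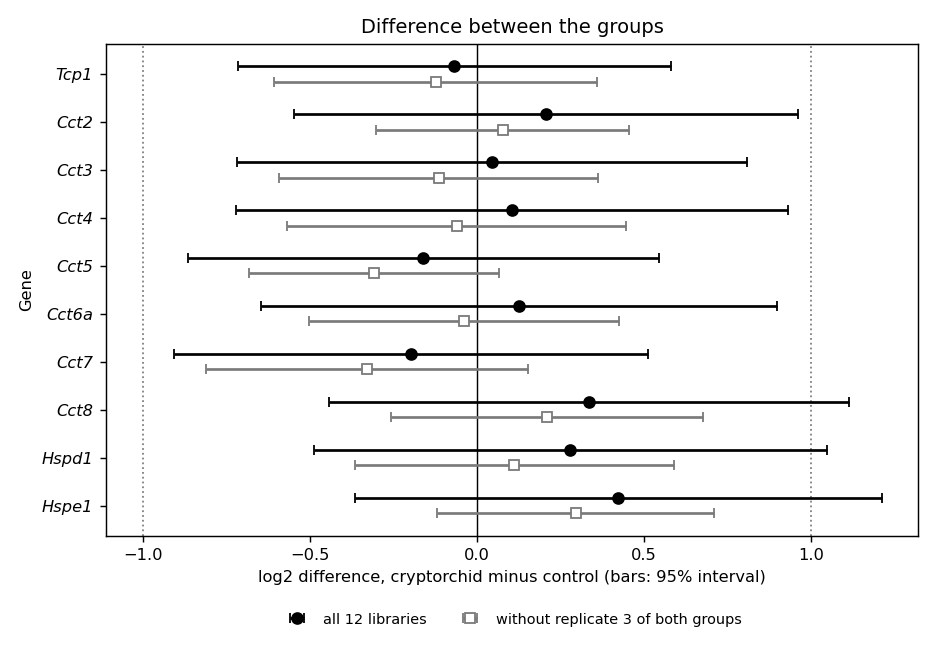
Log2 difference (cryptorchid minus control) with its 95% limma interval for each gene, from all 12 libraries (black circles) and without replicate 3 of both groups (grey squares); dotted lines mark 2-fold. All intervals include 0, and the grey intervals are shorter and lie within 2-fold.

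The intervals bound how large a difference these libraries allow. With all libraries, the 95% intervals of 7 of 10 genes lay within 2-fold in both directions, and those of *Cct8*, *Hspd1* and *Hspe1* reached above 2-fold higher (at most 2.31-fold, for *Hspe1*). An interval within 2-fold was obtained for 25.3% of all genes tested. Without replicate 3 of both groups, an alternative chosen after the data were seen, all 10 intervals lay within 2-fold, between -0.81 and 0.71 on the log2 scale, and 0 of 10 genes passed an unadjusted *P* of 0.05, beside 13.5% of all genes. The median TRiC difference was then -0.09 instead of 0.07 and 2 of the 8 genes had a higher mean instead of 5, as *Cct3*, *Cct4* and *Cct6a* changed sign. The median was -0.24 when only control replicate 3 was left out. Within the technical sets, 9 of 10 genes kept 1 sign in both sets, beside 63.9% of all genes. These 9 are not independent cases, as the chaperonin genes moved together over the libraries. The differences of *Cct3* were small in both sets (0.0020 and 0.045). *Hspe1* was higher in cryptorchid libraries by 0.27 in replicates 1 to 3 and by 0.43 in replicates 4 and above. *Cct8* was higher by 0.15 and 0.44, and in replicates 4 and above it was the 1 of 10 genes with an unadjusted *P* under 0.05 in limma, beside 17.3% of all genes.

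Because replicate 3 shifted all TRiC genes together, each subunit was also set against the mean log2 RPM of the other 7 in the same library, a comparison added after the values were seen. Of the 8 ratios, 2 differed at an unadjusted *P* of 0.05 in the exact two-sided permutation test. Of all genes tested against the TRiC mean in the same way, 7.85% did. The 8 ratios are not independent of each other, since a higher level of 1 gene lowers the ratios of the other 7. *Cct8* stood 0.80, 0.55, 0.63, 0.45 and 0.52 above the other subunits (log2) in control replicates 1 to 5. In the cryptorchid libraries it stood 0.80 to 1.14 above them, and 6 of 7 exceeded every control library. The mean difference was 0.33 (exact *P*=0.00253, adjusted over all genes tested *P*=0.400), and it was 0.21 in replicates 1 to 3, 0.46 in replicates 4 and above and 0.34 without replicate 3 of both groups.

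*Cct5* moved the other way against the other TRiC genes, a direction in which a higher *Cct8* also shifts its ratio. It stood 0.12, 0.34, 0.25, 0.27 and 0.30 above the other subunits in control libraries, and between -0.14 and 0.18 in cryptorchid libraries. Of the latter, 5 of 7 lay below every control, and replicates 2 and 4 were the exceptions. The mean difference was -0.24 (exact *P*=0.0101, adjusted over all genes tested *P*=0.454), and it was -0.18 and -0.30 in the technical sets. *Cct7* had a mean difference of -0.28 (exact *P*=0.0821). The other 5 subunits differed by -0.13 to 0.18, with exact *P*-values from 0.162 to 0.960. Leaving out 1 library at a time kept the difference of *Cct8* between 0.29 and 0.38 and that of *Cct5* between -0.27 and -0.21. Among the 5 pairs of libraries with the same replicate number, *Cct8* was higher in 5 of 5 cryptorchid libraries and *Cct5* and *Cct7* were lower in 5 of 5. With that number as a block the exact *P* of each was 0.0625, the smallest it can be. The share of all genes with 1 direction in 5 of 5 pairs is not given here. The numbers could not be shown to pair the libraries, and the 3 ratios depend on each other. With 1 library left out, the exact *P* of *Cct7* ran from 0.0260 to 0.170. It was under 0.05 only without control replicate 5 (0.0424) or without cryptorchid replicate 2 (0.0260).

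**Figure D4:**
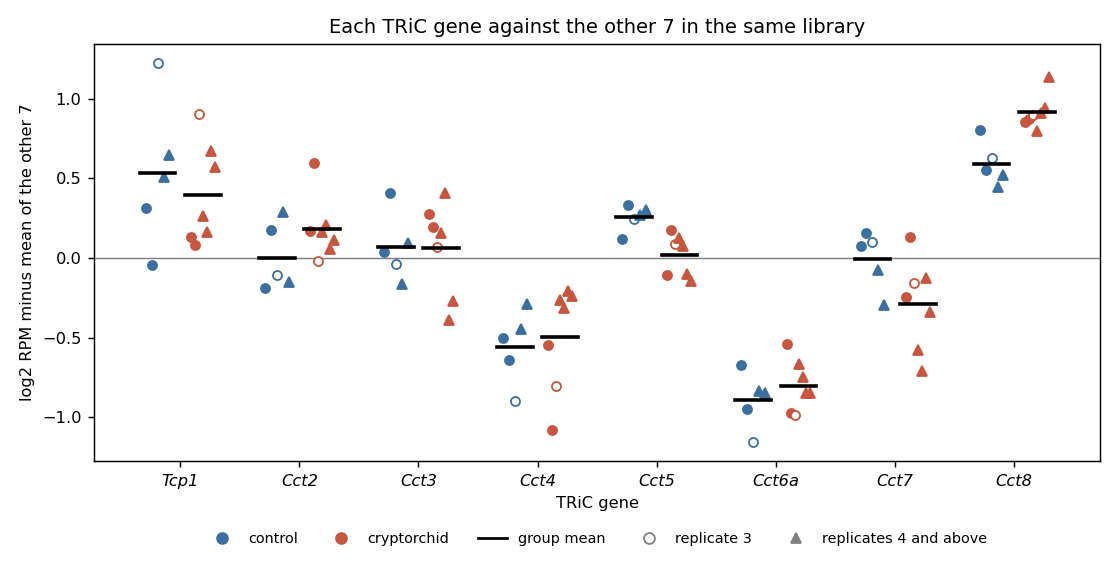
Log2 RPM of each TRiC gene minus the mean of the other 7 in the same library, for control (blue) and cryptorchid (red) libraries, with group means as black lines and replicate 3 as open circles. For *Cct8*, 6 of 7 cryptorchid points lie above all control points, and for *Cct5*, 5 of 7 lie below them.

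The ratio of *Hspe1* to *Hspd1* did not separate the groups. The log2 difference between lid and barrel was -0.23, 0.62, 0.31, 0.68 and 0.16 in control libraries and ran from -0.26 to 1.04 in cryptorchid ones. Replicate 1 of both groups held the lowest ratio, below 0, and the rest were above 0. The means were 0.31 ± 0.37 (SD, n = 5) and 0.45 ± 0.42 (n = 7), a difference of 0.14 (exact two-sided permutation *P*=0.543, for which the smallest possible value is 0.00126). Without control replicate 1 the difference was 0.0085.

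Some reads on these genes could belong to others. Nextera libraries do not mark the strand, and exons of *Tcp1* (712 bases, with *Acat3* and *Mrpl18*), *Cct6a* (452 bases, with *Psph*), *Cct7* (214 bases, with *Pradc1*) and *Cct8* (192 bases, with *Usp16*) overlap a gene on the opposite strand. *Usp16*, a deubiquitinase gene, had a log2 difference of 0.32 (SE 0.26, limma adjusted *P*=0.737), and reads shared with it cannot be told apart from those of *Cct8*. The mean level of *Usp16* was 6.79 log2 RPM, beside 9.96 for *Cct8*, and the part of shared reads was not tested. *Hspd1* and *Hspe1* overlap each other by 112 bases of exon in the GENCODE annotation used here, in which *Hspe1* starts further upstream. Transcripts of 5 pseudogenes matched *Hspd1* and those of 4 pseudogenes matched *Hspe1* at 90% identity or more over at least 200 bases. By the same limits *Cct3* and *Cct7* each matched 1 pseudogene, and *Tcp1* matched *Acat2* as well as *Acat3*.

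Over the 12 libraries the TRiC genes moved together. Profiles were centred on the mean of each gene and compared by the root mean square (RMS) of their differences in log2 RPM. Against the mean of the other 7, *Cct5* and *Cct6a* both ranked 10 in likeness among 16925 genes (RMS 0.16 each), *Cct8* ranked 35, *Cct2* 49, *Cct3* 127, *Cct7* 205 and *Cct4* 263. *Tcp1* was the least alike, at rank 755 with an RMS of 0.36. The median gene had an RMS of 0.89 to the TRiC mean. The 5 genes outside the chaperonins closest to the TRiC mean were *Nsun2* (RMS 0.10), *Rsl1d1* (0.11), *Eef1a1* (0.12), *Sec22b* (0.14) and *Trap1* (0.14). *Hspd1* lay close to the TRiC mean, at rank 34 (0.19), whereas *Hspe1* ranked 1100 (0.38). *Hspe1* ranked 423 in likeness to *Hspd1* (0.37), and the closest genes to *Hspd1* were *Ints10* (0.14), *Eif2s1* (0.15), *Ube2d3* (0.18), *Nsun2* (0.18) and *Gdi2* (0.18). All of these profiles include the dip of replicate 3 and share the libraries' depths.

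*Cct6b*, the testis paralogue of *Cct6a*, was at 46.6, 16.2, 26.4, 49.7 and 43.2 RPM in control libraries. In cryptorchid libraries it ran from 3.23 through a median of 14.6 to 60.4 RPM. Of the cryptorchid libraries, 4 of 7 lay below every control and 2 of 7 above every control. The log2 difference was -0.77 (SE 0.61, limma adjusted *P*=0.723), and it was -1.74 in replicates 1 to 3 and -0.28 in replicates 4 and above. Among the 4 chaperonin-like paralogues, *Cct6b*, *Mkks*, *Bbs10* and *Bbs12*, none passed an unadjusted *P* of 0.05. With the replicate number as a block, *Cct6b* had a log2 difference of -1.32 (limma adjusted *P*=0.0423), although the numbers could not be shown to pair the libraries. Cryptorchid replicates 6 and 7 (60.4 and 42.2 RPM) did not enter this blocked difference, as no control has their number.

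The genes that work with the chaperonins were described in 8 lists of 72 genes, of which 70 were tested. In limma, 3 were higher and 2 lower in cryptorchid libraries at an unadjusted *P* of 0.05, 7.14% beside 9.48% of all genes tested, and none passed an adjusted *P* of 0.05. Of 6 prefoldin subunits 1 was higher, *Vbp1* (log2 difference 0.80, SE 0.38, limma adjusted *P*=0.525). None of the 4 phosducin-like cofactors passed, and *Pdcl* had the smallest *P* (0.82, SE 0.52, limma adjusted *P*=0.649). The 7 tubulin folding cofactors, which take tubulin after TRiC, likewise held none, and *Tbcc* had the smallest *P* (-0.70, SE 0.45, limma adjusted *P*=0.657).

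TRiC substrates had the lowest median of the lists, -0.46 over 13 genes, with 9 lower and 4 higher means. Among all 16932 genes tested, 7336 had a lower mean. *Tubb4b*, a beta tubulin gene, passed the unadjusted threshold (-0.86, SE 0.37, limma adjusted *P*=0.479). Its level ran from 8.06 to 10.21 log2 RPM in control and from 7.79 to 9.43 in cryptorchid libraries. Without replicate 3 of both groups 5 of the 13 substrates were lower at that threshold and none was higher, beside 13.5% of all genes in either direction, and no adjusted *P* was under 0.05.

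Of 16 other mitochondrial chaperones and proteases, 1 was lower, *Spg7*, a subunit of an inner membrane protease (-0.91, SE 0.35, limma adjusted *P*=0.430), and the median was -0.11. *Trap1*, the mitochondrial HSP90, had a log2 difference of 0.11. The 15 cytosolic heat shock genes had a median of 0.32, with 13 higher means. Among all 16932 genes tested the median was 0.10, with 9596 higher means. The 2 lower means were those of the HSP70 genes *Hspa1a* (-1.02) and *Hspa1b* (-0.96), which did not pass the unadjusted threshold. Of the 15, 2 genes passed it. These were *Hsph1*, an HSP110 nucleotide exchange factor (1.20, SE 0.25, limma adjusted *P*=0.129), and *Chordc1*, an HSP90 cochaperone (1.39, SE 0.30, limma adjusted *P*=0.129). Their groups did not overlap, as *Chordc1* reached 5.33 log2 RPM at most in control and started from 5.48 in cryptorchid libraries. Groups without overlap were found for 0.839% of all genes. Without replicate 3 of both groups 4 of the 15 were higher and none was lower at the unadjusted threshold, beside 13.5% of all genes in either direction. The intervals of *Hspd1* and *Hspe1* ended at 1.05 and 1.21, and the difference of either from that of *Chordc1*, which was chosen for its *P*-value, was not tested. The list of 5 tested regulators of chaperonin genes, among them *Hsf1* (0.03) and *Hsf2* (-0.10), held none that passed, and *Ddit3* had the smallest *P* (0.47, SE 0.49, limma adjusted *P*=0.797).

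**Figure D5:**
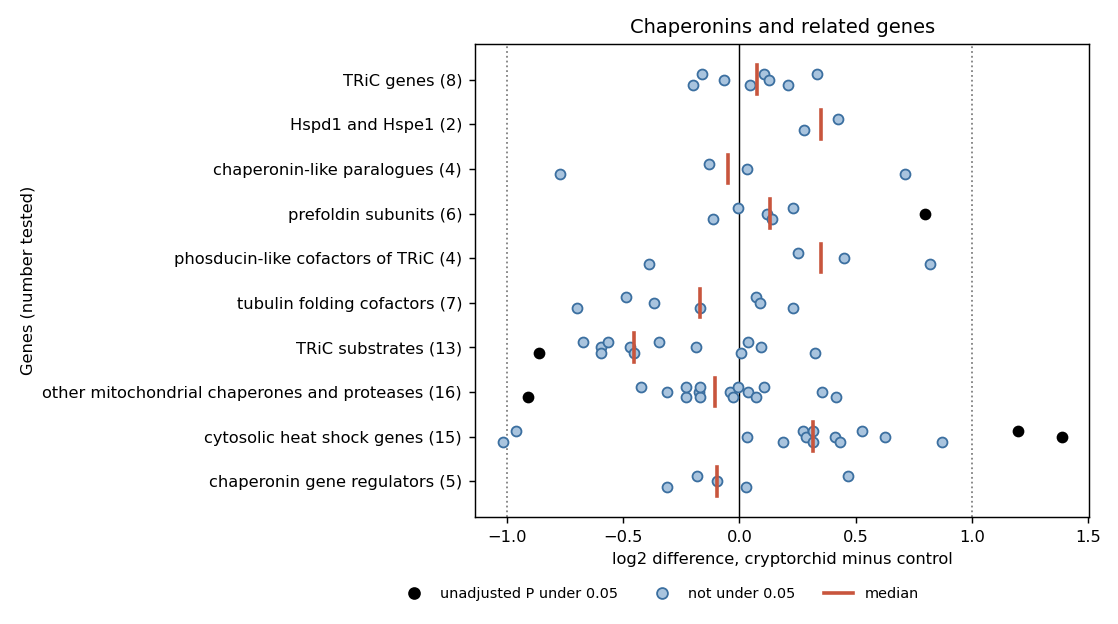
Log2 difference (cryptorchid minus control) of each gene in the chaperonin groups and the 8 related lists, with the number tested in brackets, the list median as a red line and genes with an unadjusted *P* under 0.05 in black; dotted lines mark 2-fold. The 10 chaperonin genes lie between -0.20 and 0.42, and the 2 black points beyond 2-fold are *Hsph1* and *Chordc1*.

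Of the 8 genes with the 4-block heat shock run, 6 were tested. *Chordc1* was higher at the unadjusted threshold, while *Fam149a* (1.50, SE 0.84, limma adjusted *P*=0.603), *Hspe1* (0.42), *Kctd18* (0.28), *Hspd1* (0.28) and *Arpc2* (0.03) did not pass it. The same run in the promoter window thus went with log2 differences from 0.03 to 1.50.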

How the data were processed

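Read trimming (Trim Galore!), alignment to mm10 (GRCm38; HISAT2 2.1.0) and quantification over protein-coding genes (SeqMonk 1.48.1) were done by the authors, who deposited log2 RPM values. Whether strand or multiply mapped reads were used is not given in the sources used here. Removal of duplicates was not stated for RNA-seq. 0 columns belonged to no sample.

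From these log2 values, differences of group means were tested with limma 3.58.1 (lmFit and eBayes with trend, R 4.3.3) over 16932 genes (mean RPM above -1 on the log2 scale), 5 control against 7 cryptorchid libraries, unpaired. *P*-values are two-sided and unadjusted unless called adjusted, which is by Benjamini-Hochberg over all genes tested. The members and gene lists were chosen with earlier results of these data known. Named were all 10 chaperonin genes, *Cct6b*, and of each related list up to 3 genes with *P* under 0.05 or else the gene with the smallest *P*. The 5 nearest profiles to the TRiC mean and to *Hspd1* were also named. So were genes singled out after their values were seen (*Trap1*, *Hsf1*, *Hsf2*, *Hspa1a*, *Hspa1b*, *Usp16* and the genes with the 4-block run). Reads were recovered from the steps of the values, with the lowest value of a library standing for 0.9 reads, and 100% of values under 1000 reads came out whole within 0.02. Reads are PCR copies and give counting error only.

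Exact tests were run with scipy 1.17.1, pandas 2.3.3 and numpy 2.4.6 under Python 3.11.15, transcripts were compared with BLAST 2.17.0, and plots were drawn with matplotlib 3.10.9. On simulated data for this comparison (200 changed of 16932 genes), limma gave *P* under 0.05 to 54.5% of genes with a log2 change of 1 and to 96% with a change of 3, and 0% and 73% passed after adjustment. Of unchanged genes, 5.24% and 5.08% had *P* under 0.05. The simulated noise was independent between genes and libraries, without shifts of whole libraries such as the dip of replicate 3. These rates are over all genes tested and were not obtained for the chaperonin genes. Gene positions and promoters are from RefSeq (GRCm38.p6), transcript lengths and exon overlaps from GENCODE vM21. The alternatives were median centring, quantile normalization, log2(RPM + 1), log2(RPM + 0.1), no filter, a filter at 2, array weights, voom on recovered reads, an exact rank sum test, a replicate block, a technical set term, each set alone and each library left out.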

Additional observations from a re-analysis of the deposited data

Results flagged for a closer look

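In 22 groups of values (10 genes and the *Hspe1* to *Hspd1* ratio in each of 2 groups), 6 held a library far from the others by Dixon's criterion, which chance alone meets in about 1 of 20 groups. All 6 were the lowest value, in replicate 3. In the control group these were *Cct2* at 7.999 log2 RPM (the next library at 9.34), *Cct4* at 7.31 (next 8.94) and *Cct5* at 8.31 (next 9.57). In the cryptorchid group they were *Cct2* at 8.36 (next 9.52), *Cct5* at 8.45 (next 9.33) and *Hspe1* at 6.48 (next 7.75). The groups were not independent of each other, as the same library was involved.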

How the results depend on the processing

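The count of chaperonin genes past an unadjusted *P* of 0.05 was 0 in most settings and 1 in replicates 4 and above alone (*Cct8*, 0.44, limma adjusted *P*=0.223). The count past 2-fold as well was 0 in every setting run. Over 27 alternatives, 247 of 270 member differences kept sign and side of the threshold, and 20 changed sign, all without passing it. With no filter, a filter at 2 or the exact rank sum test the difference is that of the main setting. The sign could not change there. *Tcp1* was 0.022 under quantile normalization. *Cct3* was -0.023 under median centring, -0.019 with voom and -0.12 without replicate 3 of both groups, a setting chosen after the data were seen. *Cct4* was -0.015 with a technical set term, -0.15 in replicates 1 to 3 alone and -0.061 without replicate 3, and *Cct6a* was -0.039 without replicate 3. With 1 library left out, *Tcp1* ran from -0.20 to 0.035, *Cct2* from -0.11 to 0.39, *Cct3* from -0.27 to 0.20, *Cct4* from -0.26 to 0.30, *Cct6a* from -0.22 to 0.32 and *Hspd1* from -0.077 to 0.49, and control replicate 3 gave the low end of the last 5. Within libraries, *Tcp1* against the other subunits ran from -0.28 to 0.040, *Cct3* from -0.063 to 0.080 and *Cct4* from -0.023 to 0.16 with 1 library left out, *Cct3* was 0.045 in replicates 1 to 3 and 0.0090 in replicates 4 and above, and *Cct4* was -0.13 in replicates 1 to 3. Each technical set alone is too small for *Cct8* or *Cct5* to pass by exact test (smallest *P* 0.1 and 0.0667).

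The number of related genes past the unadjusted threshold was 5, and it was 9 with median centring, 1 in replicates 1 to 3 alone, 19 in replicates 4 and above alone, 12 without replicate 3 of both groups, and 2 to 11 with 1 library left out (2 without control replicate 2, 3 without control replicate 1 or cryptorchid replicate 7, 8 without cryptorchid replicate 1 and 11 without control replicate 3). The related genes tested numbered 70. Of all genes tested, 9.48% passed in limma with all 12 libraries, 17.3% in replicates 4 and above alone and 13.5% without replicate 3 of both groups. For the other settings of this paragraph the share of all genes is not given here. The cause of the shifts in number was not tested.

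The labels do not say that a replicate number marks a mouse, although by the study's methods the control was the other testis of an operated mouse. Deviations of same-numbered libraries correlated at 0.347, 0.363, 0.411, 0.250 and 0.0488 over genes for numbers 1 to 5, so numbers 1 to 4 correlated best with their own number and number 5 did not. With the replicate number as a block, 1 chaperonin gene passed (*Cct7*, -0.30, limma adjusted *P*=0.159), beside 22.2% of all genes, also on median-centred values (1 gene), and 18 related genes did. In this block *Cct4* was -0.076 (-0.069 when centred) and *Cct6b* -1.32 (limma adjusted *P*=0.0423), and within libraries *Cct3* was 0.15 and *Cct4* -0.045 against the other subunits. Cryptorchid replicates 6 and 7 have no control of the same number and did not enter these blocked differences. The depth of at least 528 reads a gene leaves counting error small beside the spread between libraries.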
